A study of Sus scrofa with 6 samples.

Results

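BMAL1, BMAL2, CRY1 and PER1 are genes of the circadian clock. They were taken by symbol from the gene IDs of the count files, and 4 of the 25322 IDs carried these symbols. The IDs were ENSSSCG00000013397 for BMAL1 (older name ARNTL), ENSSSCG00000000551 for BMAL2 (older name ARNTL2), ENSSSCG00000000164 for CRY1 and ENSSSCG00000017983 for PER1. RNA sequencing gave their mRNA levels in 3 tissues (fat, liver, skeletal muscle) of Berkshire pigs, a breed of English origin, and of Korean native pigs. The 6 libraries, 1 per tissue of either breed, came from frozen tissue with no treatment named in the labels. The sources used here do not give age, sex or the hour of sampling. The series title counts 3 of each breed, without saying whether these are animals or the breed's 3 tissue libraries.

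The clock is a feedback loop of transcription that runs in nearly every mammalian cell. BMAL1 pairs with CLOCK, or with its paralogue NPAS2, and switches on genes that carry E-box sequences, among them the PER and CRY genes. PER and CRY proteins then return to the nucleus and hold the BMAL1 pair back, while the receptors of the ROR family raise and those of the REV-ERB family lower BMAL1 transcription. In mouse liver, fat and muscle these transcripts rise and fall over the day, so a level in any sample belongs to the hour at which the tissue was taken.

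Between 5897407 and 7912093 counts per library fell on genes. Levels are TMM-scaled CPM (counts per 1e6 of library size), for which library sizes are adjusted so that most genes centre on equality, and 3 counts in a library equal 0.294 to 0.692 CPM. Gene lengths of the build used were not available for this work, so levels of different genes are not ranked against each other. Defining markers were highest in the tissue each label names. Summed over 9 hepatocyte markers the level was 227033 and 261965 CPM in liver and at most 69.7 CPM elsewhere. Over 8 skeletal muscle markers it was 101206 and 159609 CPM in muscle and at most 88.8 CPM elsewhere. Over 5 adipocyte markers it was 4581 and 3522 CPM in fat, 541 and 321 CPM in muscle and at most 31.3 CPM in liver. In bulk tissue, fewer cells of a type and less RNA per cell cannot be told apart.

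The first question was how the 4 genes differ between tissues. BMAL2 was highest in fat in both breeds, while BMAL1, CRY1 and PER1 were each detected in all 3 tissues with overlapping ranges. BMAL2 fell in liver and in muscle against fat, and none of the other 3 genes passed the test between any pair of tissues.

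BMAL2 encodes the paralogue of BMAL1, and the human and mouse proteins can also pair with CLOCK. It stood at 10.5 CPM (107 counts) in Berkshire fat and 21.5 CPM (218 counts) in Korean native fat. In liver it had 0 counts in the Berkshire library, where 3 counts equal 0.600 CPM and the exact 95% upper limit is 0.738 CPM, and 1 count, or 0.166 CPM, in the Korean native library. Muscle held 3 counts in each library, equal to 0.549 CPM in Berkshire and 0.692 CPM in Korean native. Both fat libraries lay above the other 4, with no overlap. Against fat, the log2 difference fitted over both breeds was -7.25 ± 0.70 (SE) in liver, with an edgeR adjusted p of 0.000498. In muscle it was -4.59 ± 0.54, with an edgeR adjusted p of 0.00228. These fitted values rest on libraries of 0 to 3 counts and are no bounds.

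The fat excess of BMAL2 was also taken within each breed. Berkshire fat was at least 17.5-fold higher than Berkshire liver when 3 counts in the liver library are taken as the floor, and the exact 95% lower limit of the ratio was 14.0. Korean native fat stood 129.7-fold above Korean native liver, with an exact 95% interval from 23.0 to 5147. Fat over muscle was 19.1-fold in Berkshire (6.36 to 94.0) and 31.1-fold in Korean native (10.5 to 152). These intervals and the lower limit lay above equality. Liver against muscle was -2.66 ± 1.05 on the log2 scale and did not pass (edgeR adjusted p 0.0884). In 12 other settings this adjusted p ran from 0.0255 to 0.242, the lowest from limma-voom, under which 38.8% of all genes passed.

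**Figure D1:**
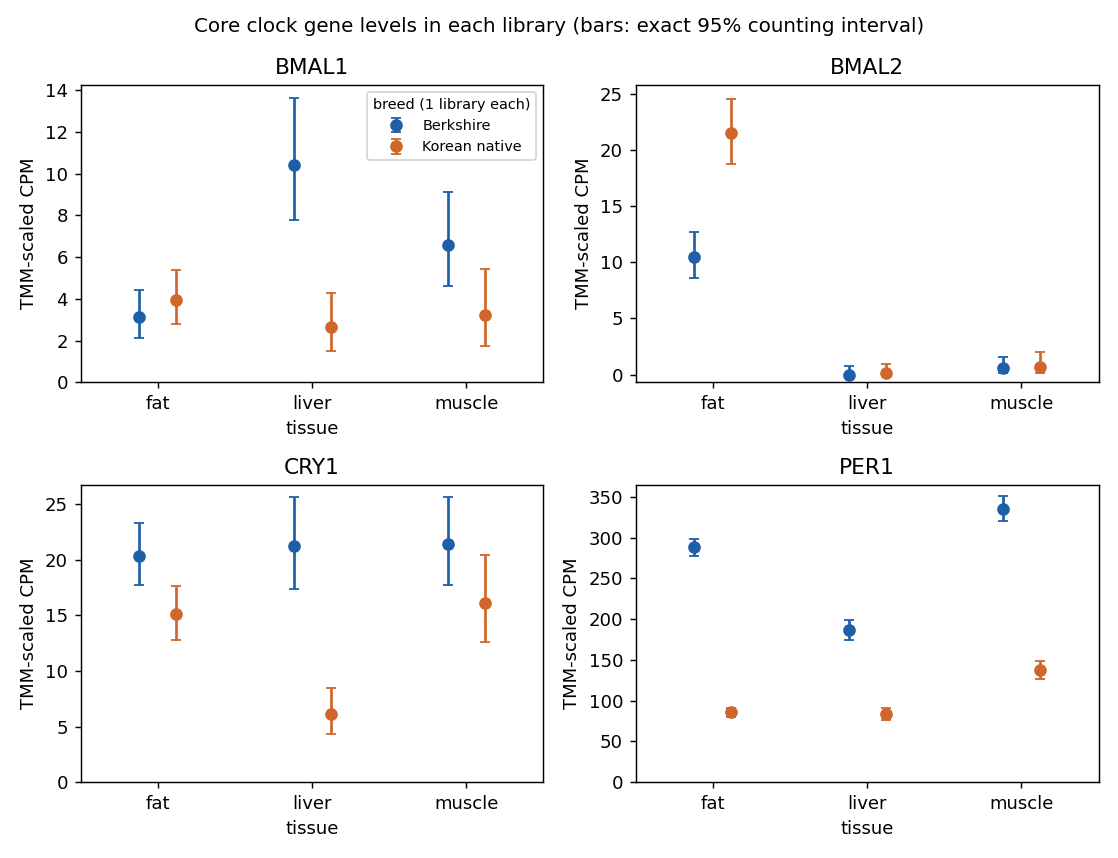
TMM-scaled CPM of BMAL1, BMAL2, CRY1 and PER1 (vertical axes, linear, scaled separately for each gene) in fat, liver and muscle (horizontal axes), 1 point per library with its exact 95% counting interval; blue marks Berkshire and orange Korean native. BMAL2 reaches 10.5 and 21.5 CPM in fat and at most 0.692 CPM elsewhere, and PER1 is lower in the Korean native library of each tissue.

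BMAL1 is the activator at the centre of the loop and had few reads, 14 to 52 counts a library. In the Berkshire libraries BMAL1 was at 3.13 CPM in fat, 10.4 CPM in liver and 6.59 CPM in muscle. In the Korean native ones it was at 3.94 CPM in fat, 2.65 CPM in liver and 3.23 CPM in muscle. Berkshire liver and Berkshire muscle were the high libraries, and the ranges of all 3 tissues overlapped. In order of level, Korean native liver, Berkshire fat, Korean native muscle and Korean native fat did not differ from one to the next beyond counting error, and Berkshire muscle lay above them and below Berkshire liver by more than that error. In Berkshire, fat held 0.301 of the liver level (exact 95% interval 0.188 to 0.477), whereas in Korean native pigs the same ratio was 1.49 (0.815 to 2.85). Fitted over both breeds, the log2 difference was 0.63 ± 0.60 for liver against fat, 0.32 ± 0.60 for muscle against fat and 0.30 ± 0.59 for liver against muscle, with edgeR adjusted p of 0.476, 0.738 and 0.727. The sign against fat turned when libraries were scaled by total counts or Berkshire fat was left out, and the sign of both liver comparisons turned without Berkshire liver.

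CRY1, a repressor of the BMAL1 pair, was level across the Berkshire tissues. In that breed it stood at 20.4 CPM in fat, 21.2 CPM in liver and 21.4 CPM in muscle, from 208, 106 and 117 counts. In Korean native pigs it stood at 15.1 CPM in fat, 6.13 CPM in liver and 16.1 CPM in muscle, from 153, 37 and 70 counts. Korean native liver was the low library, and the other 5 formed an order in which no neighbours differed beyond counting error. Libraries further apart in that order did, as Berkshire fat was 1.35-fold above Korean native fat (exact 95% interval 1.09 to 1.67). Within Korean native pigs, fat was 2.46-fold above liver (exact 95% interval 1.71 to 3.63) and muscle 2.63-fold above liver (1.74 to 4.04). In Berkshire the same ratios were 0.961 (0.757 to 1.23) and 1.01 (0.770 to 1.33). Over both breeds CRY1 did not pass in any tissue comparison, with log2 -0.54 ± 0.42 in liver against fat, 0.08 ± 0.41 in muscle against fat and -0.62 ± 0.43 in liver against muscle, and edgeR adjusted p of 0.384, 0.911 and 0.302. In the RefSeq annotation of another build, Sscrofa11.1, the whole span of CRY1 overlaps those of MTERF2 and TMEM263. Exons and strand were not compared, and the effect of this overlap on the CRY1 counts was not tested.

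PER1, the partner of CRY proteins in repression, had 506 to 2942 counts a library and so the smallest counting error of the 4. In Berkshire its level was 288 CPM in fat, 187 CPM in liver and 335 CPM in muscle. In Korean native pigs it was 85.7 CPM in fat, 83.8 CPM in liver and 137.7 CPM in muscle. All 3 Berkshire libraries lay above all 3 Korean native libraries, and the tissue ranges overlapped. In both breeds muscle was above liver, by 1.80-fold in Berkshire (exact 95% interval 1.66 to 1.95) and 1.64-fold in Korean native (1.46 to 1.85). The fitted log2 difference of liver against muscle was -0.78 ± 0.33, with an unadjusted p of 0.0479 and an edgeR adjusted p of 0.104. It was -0.34 ± 0.32 for liver against fat and 0.44 ± 0.32 for muscle against fat, with edgeR adjusted p of 0.483 and 0.372. The Korean native levels of liver and fat did not differ beyond counting error, and all other neighbours in the order did.

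In all, 1 of the 4 genes passed in liver against fat, where 28.7% of 13810 tested genes did and 13.5% fell, and 1 of 4 in muscle against fat, where 16.4% did and 6.43% fell. In liver against muscle 0 of 4 passed by edgeR, against 35.9% of all genes, with 2 of 4 (BMAL2 and PER1) at an unadjusted p under 0.05, against 46.4%. Tissue values depend on scaling. Total counts in place of TMM factors moved the median gene from 0.06 to -0.94 on the log2 scale in liver against fat and from -0.05 to -0.98 in muscle against fat. Under that scaling CRY1 (-1.57, adjusted p 0.0184) and PER1 (-1.34, adjusted p 0.0174) passed in liver against fat, where 50.4% of all genes did. For BMAL2, all 12 other settings kept the call in both comparisons, with adjusted p from 2.51e-06 to 0.00350 in liver and from 1.34e-06 to 0.0267 in muscle.

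Other cell types also differed between these tissues. Summed endothelial markers (5 matched of 8) stood in the Berkshire and Korean native libraries at 1060 and 780 CPM (fat), 402 and 378 CPM (liver) and 525 and 470 CPM (muscle), with no marker at 0. Fibroblast and tendon markers (7 matched of 8) stood at 10860 and 15823 CPM (fat), 920 and 781 CPM (liver) and 17412 and 4215 CPM (muscle). In that list TNMD was at 0 in Korean native fat, TNMD and THBS4 in Berkshire liver, and TNMD and KERA in Korean native liver. The part of these cells in the BMAL2 level was not tested.

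Other genes of the clock were examined to see whether the tissue pattern extended beyond these 4. Of 26 further clock genes, 18 matched an ID and 17 were tested; RORB, with 1 count in all, was not. Not every gene counted here is named. By edgeR 6 of the 17 rose and 3 fell in liver against fat, where 15.2% of all genes rose and 13.5% fell. Muscle had 4 genes above fat and 0 below it, where 9.95% of all genes rose and 6.43% fell. In liver against muscle 3 rose and 3 fell, beside 18.6% and 17.4% of all genes. The median log2 differences were 0.32, 0.61 and -0.39 in these comparisons, and 0.06, -0.05 and -0.01 over all tested genes.

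Among the activators, CLOCK was at 6.07 CPM in Berkshire fat and 8.28 CPM in Korean native fat, at 19.6 and 15.7 CPM in the liver libraries and at 15.2 and 21.0 CPM in the muscle libraries. It rose against fat by 1.32 ± 0.35 in liver and 1.33 ± 0.35 in muscle on the log2 scale, with edgeR adjusted p of 0.0305 and 0.0453. NPAS2, which can stand in for CLOCK, fell in liver against fat by 1.39 ± 0.43 (edgeR adjusted p 0.0499). BMAL2 and NPAS2 were thus lower in liver than in fat, and CLOCK higher. The NPAS2 call lay at the threshold and did not hold under limma-voom or without the breed term. TIMELESS, which binds PER and CRY proteins, rose and BHLHE41, a repressor of E-box genes also called DEC2, fell in liver against both other tissues (edgeR adjusted p 0.00241 to 0.0396). CRY2, the paralogue of CRY1, fell in liver against muscle by 2.03 ± 0.41 (edgeR adjusted p 0.00896). CRY2 stood at 10.8 and 21.4 CPM in liver and 74.7 and 53.3 CPM in muscle. PER2, like PER1, did not pass in any tissue comparison, at 30.2 to 57.8 CPM over the 6 libraries.

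Receptors that act on BMAL1 transcription also differed between tissues. RORA, an activator of BMAL1, was at 8.03 CPM in Berkshire fat and 6.80 CPM in Korean native fat, at 51.2 and 75.1 CPM in the liver libraries and at 82.9 and 76.8 CPM in the muscle libraries. It rose by 3.08 ± 0.35 in liver and 3.42 ± 0.35 in muscle against fat (edgeR adjusted p 0.00102 and 0.00128). NR1D2, a REV-ERB repressor of BMAL1, stood at 115 and 104 CPM in fat, 116 and 140 CPM in liver and 215 and 294 CPM in muscle and rose in muscle against fat by 1.20 ± 0.32 (edgeR adjusted p 0.0478). Its paralogue NR1D1 matched no ID. BMAL1 itself did not pass in these comparisons.

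Among output factors, HLF rose against fat by 1.28 ± 0.36 in liver and 1.69 ± 0.36 in muscle (edgeR adjusted p 0.0349 and 0.0227), and NFIL3, which competes with them for D-box sequences, rose in liver against muscle by 1.68 ± 0.33 (edgeR adjusted p 0.00749). Of the kinases, CSNK1E, which marks PER proteins for breakdown, fell in liver by 2.00 ± 0.33 against fat and 1.87 ± 0.33 against muscle (edgeR adjusted p 0.00472 and 0.00512). GSK3B rose in liver against fat by 1.14 ± 0.29 (edgeR adjusted p 0.0253). The ubiquitin ligase genes BTRC and FBXW11 did not pass in any tissue comparison.

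**Figure D2:**
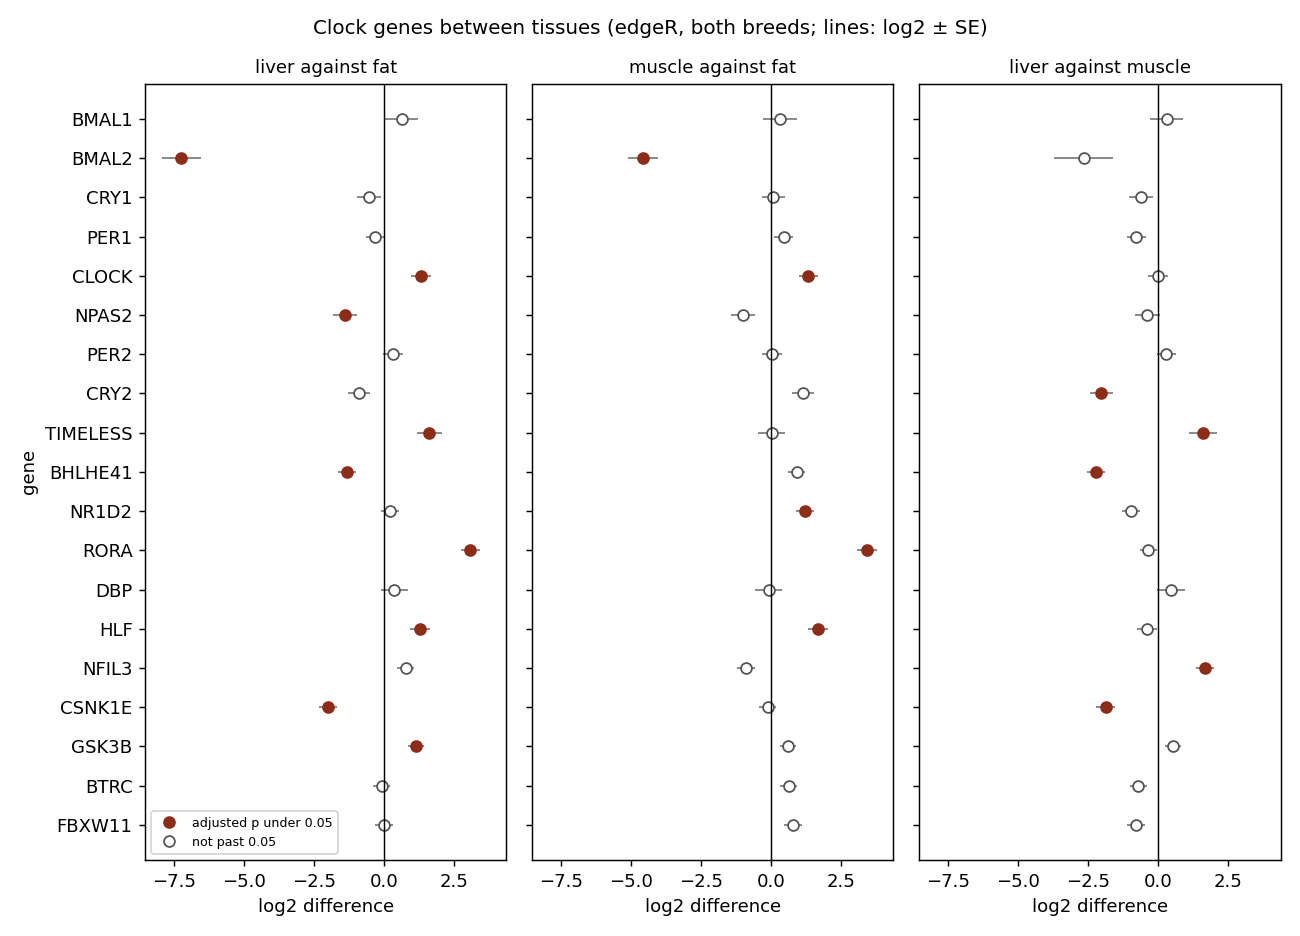
log2 difference (horizontal axes) of 19 tested clock genes (vertical axis) for liver against fat, muscle against fat and liver against muscle, with lines of ± SE; filled points passed an edgeR adjusted p of 0.05 and open points did not. BMAL2 stands apart at -7.25 and -4.59 in the comparisons with fat, and RORA reaches 3.08 in liver and 3.42 in muscle against fat.

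Many of these calls did not hold when a library was left out. Counting the 4 genes and the other clock genes together, 10 passed in liver against fat, and 5 did so when Berkshire fat, Berkshire liver or Korean native liver was left out and 4 when Korean native fat was. In muscle against fat 5 passed, and 2 when any of the 4 fat and muscle libraries was left out. In liver against muscle 6 passed, and 3 without Berkshire liver. BMAL2 and RORA in both comparisons with fat, and CSNK1E in liver against either tissue, kept their calls in all 6 such fits. BHLHE41 did so in liver against muscle, and NR1D2 in none. With total counts, 2 rose and 10 fell in liver against fat, in place of 6 and 4, and muscle against fat had 1 higher and 5 lower, in place of 4 and 1. That scaling ended the calls of CLOCK, HLF, GSK3B, NR1D2 and TIMELESS, and no called gene changed direction.

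The next question was how the 4 genes differed between breeds. PER1 was lower in the Korean native library of every tissue, CRY1 and BMAL1 were low in Korean native liver, and BMAL2 was higher in Korean native fat. Over all 3 tissues none passed by edgeR, in a test that takes the 3 tissues as replicates of a breed. Within a tissue there was no replicate of either breed and hence no test. Exact 95% intervals of those ratios cover counting error only.

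PER1 was 3.36-fold lower in Korean native fat (exact 95% interval 3.12 to 3.63), 2.23-fold lower in liver (2.00 to 2.49) and 2.44-fold lower in muscle (2.22 to 2.68). The interval of fat did not overlap those of liver and muscle. The breed difference fitted over tissues was -1.40 ± 0.27 (SE) on the log2 scale, lower in 3 of 3 tissues, with an unadjusted p of 0.00124 and an edgeR adjusted p of 0.229. PER1 ranked 75th by p among 13810 genes. DESeq2 gave an adjusted p of 0.000719 at -1.38 and called 0.681% of genes, and over all 12 other settings the adjusted p ran from 0.000719 to 1.000 (without the tissue term) and the log2 value from -1.55 to -1.22. At least a 2-fold difference in the same direction in all 3 tissues held for PER1 and for 0.557% of 8434 genes with at least 5 CPM in some library of each tissue.

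CRY1 was also lower in all 3 tissues, a property shared by 31.2% of the same 8434 genes when either direction is counted. The ratio was 3.46-fold lower in Korean native liver (exact 95% interval 2.36 to 5.17), 1.35-fold lower in fat (1.09 to 1.67) and 1.33-fold lower in muscle (0.978 to 1.81). The interval in muscle included equality, and that in liver lay clear of the other 2. The difference over tissues was -0.84 ± 0.35, with an unadjusted p of 0.0453 and an edgeR adjusted p of 0.615.

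BMAL1 was 3.92-fold lower in Korean native liver (exact 95% interval 2.21 to 7.36) and 2.04-fold lower in muscle (1.07 to 4.10). In fat it was 1.26-fold higher in the Korean native library, with an interval that included equality (0.771 to 2.07). Over tissues the difference was -0.85 ± 0.49 (edgeR adjusted p 0.726). BMAL2 in fat was 2.05-fold higher in the Korean native library (1.62 to 2.61), and liver and muscle held too few counts to compare. Over tissues BMAL2 stood at 0.96 ± 0.47 (edgeR adjusted p 0.681), higher in fat and with 0 to 3 counts in each other library.

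**Figure D3:**
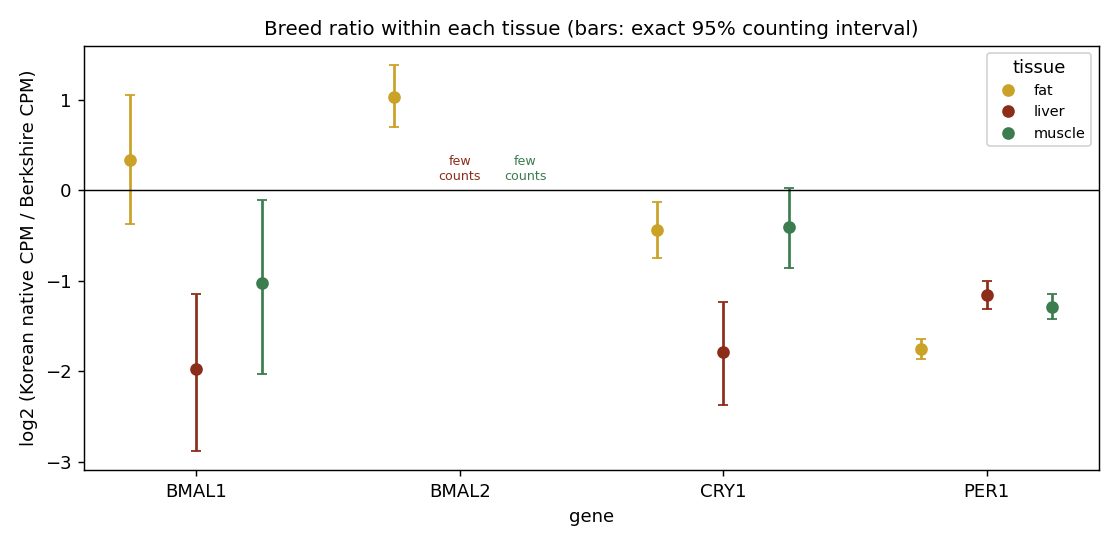
log2 ratio of Korean native over Berkshire CPM (vertical axis) of each gene (horizontal axis) in fat, liver and muscle, with exact 95% counting intervals; the BMAL2 ratios of liver and muscle, with fewer than 10 counts in both libraries together, are not drawn. PER1 lies below equality in all 3 tissues, and BMAL1 and CRY1 are lowest in liver.

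By edgeR 0 of the 4 genes passed over tissues, where 0.109% of all genes did, and 2 of 4 (CRY1 and PER1) had an unadjusted p under 0.05, against 7.99%. At a 4-fold difference with at least 10 CPM in either library, 0 of the 4 were counted in fat, liver or muscle, against 1.48%, 2.78% and 2.81% of all genes. Ranked by size of the ratio among genes with 10 CPM, PER1 was within the top 2.03% in fat, 8.57% in liver and 11.4% in muscle. BMAL1 and CRY1 were within the top 3.27% and 3.65% in liver, BMAL2 within 7.36% in fat, and CRY1 within 32.7% in fat and 60.8% in muscle. The difference between tissues in these breed ratios could not be tested with 1 library each.

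Marker lists of other cells differed between the breeds in the same tissues. In Berkshire and Korean native liver, 3 matched red cell markers of 6 summed to 247 and 2130 CPM and 3 nerve and Schwann markers of 6 to 4.60 and 140.0 CPM, with NEFL at 0 in both libraries. Macrophage markers (6 of 8) summed to 430 and 387 CPM in liver and to 88.5 and 183 CPM in fat. The near-equal liver sums hid opposite changes, with 4 of the 6 markers lower in the Korean native library and 2 higher (median log2 -0.36). MARCO was among the higher ones, at 9.80 and 83.8 CPM, and was the only marker of this list at least 4-fold apart in liver. In fat, nerve and Schwann markers were at 5.19 and 46.7 CPM, and adipocyte markers stood at 4581 and 3522 CPM. The adipocyte sums in fat hid opposite changes, with 4 of the 5 markers lower in the Korean native library and 1 higher (median log2 -0.82). PLIN4, the most abundant of them, was the higher one, at 1427 and 1852 CPM. Lymphocyte markers (7 of 8) summed to 104 and 118 CPM in liver, 45.0 and 43.0 CPM in fat and 24.9 and 17.3 CPM in muscle. In fat PTPRC, which all white blood cells carry, was at 29.2 and 34.5 CPM, and 3 of the 4 markers with 1 CPM were lower in the Korean native library (median log2 -0.68). MS4A1 and CD79B were at 0 in Korean native muscle. Between the muscle libraries fibroblast and tendon markers stood at 17412 and 4215 CPM, and macrophage markers at 54.2 and 21.7 CPM, with MARCO at 0 in the latter. Adipocyte markers in muscle summed to 541 and 321 CPM, and 5 of 5 were lower in the Korean native library (median log2 -2.01). Of these, 3 were at least 4-fold lower, where 2.81% of all genes with 10 CPM were 4-fold apart in either direction. Endothelial markers were lower in the Korean native library for 5 of 5 in fat, 2 of 5 in liver and 3 of 5 in muscle. Of all genes with 1 CPM, 51.3% were higher in the Korean native library in fat, 49.7% in liver and 49.5% in muscle. The part of these cells in the breed ratios was not tested.

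PER1 is also a target of the glucocorticoid receptor, known from mouse and human cells, and was counted in a list of such genes. That list and the list of immediate early genes below were chosen with earlier results of these data known. Their counts beside the shares of all genes are therefore a description and not a test. The other 9 matched members of that list summed to 2246, 5124 and 4477 CPM in the Berkshire libraries of fat, liver and muscle and to 559, 2457 and 507 CPM in the Korean native ones. PDK4, a brake on glucose use that rises in fasting, stood at 1060, 327 and 3496 CPM in the Berkshire libraries and 25.2, 109.9 and 8.07 CPM in the Korean native ones, and did not pass over tissues (-5.25, edgeR adjusted p 0.439). PCK1, a key enzyme of glucose synthesis, was at 2339 CPM in the Berkshire liver library and at 294 CPM in the Korean native one. It passed over tissues (-3.21, edgeR adjusted p 0.0371). PDK4 and PCK1 had the largest breed differences of the list. Abundant members not named here, with mean levels of 543 and 243 CPM over the 6 libraries, stood at -0.20 and -0.14 and did not pass by edgeR. The log2 difference over tissues was negative for 9 of 9 members, as for 47.7% of all tested genes, with a median of -1.21 against 0.02, and 1 of 9 passed, against 0.109%. Within liver 7 of the 9 were lower in the Korean native library and 2 higher, where 49.7% of all genes with 1 CPM were higher. The 2 were FKBP5 (119 and 205.5 CPM) and ZBTB16 (log2 difference 0.65), named after their values were seen. Immediate early genes, a class with which PER1 shares rapid induction in the mouse, summed over 16 matched members to 2548, 666 and 644 CPM in the Berkshire libraries of these tissues and to 987, 597 and 573 CPM in the Korean native ones. A gene not named here belongs to both lists, at 564 CPM in Berkshire fat and 248 CPM in Korean native fat. Of 15 immediate early genes tested, 12 had a negative breed difference, against 47.7% of all genes. By edgeR 0 passed, against 0.109%, with 4 at an unadjusted p under 0.05, against 7.99%. Within tissues, 10 of 15 with 1 CPM were lower in Korean native fat (median log2 -0.64). In liver and in muscle 9 of 15 were lower and 6 higher (medians -0.06 and -0.05). Of all genes, 51.3% were higher in the Korean native library in fat, 49.7% in liver and 49.5% in muscle. The part of either list in the PER1 difference was not tested.

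In the other clock genes the breed difference over tissues passed for 0 of 17 by edgeR, against 0.109% of all genes, and 3 had an unadjusted p under 0.05, against 7.99%. HLF was lower in fat (10.4 and 4.24 CPM) and in muscle (31.7 and 14.8 CPM). DBP, an output factor whose transcript in mouse liver peaks at about the opposite phase to that of BMAL1, was 3.14-fold higher in Korean native liver (1.72 to 6.12) and 2.84-fold higher in muscle (1.39 to 6.14), from 12 to 53 counts.

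In liver the exact interval of the breed ratio excluded equality for 40.5% of 13695 genes with at least 1 CPM. It did so for BMAL1, CRY1 and PER1, all 3 lower in Korean native liver, and for 4 lower and 7 higher of 17 other clock genes. Lower in Korean native liver were, among others, NPAS2 (2.01-fold), NFIL3 (74.4 and 37.4 CPM) and CSNK1E (1.77-fold). The higher genes were DBP (2.80 and 8.78 CPM), CRY2 (10.8 and 21.4 CPM), PER2 (37.0 and 57.8 CPM), GSK3B (62.2 and 101.7 CPM), RORA (51.2 and 75.1 CPM), BTRC (22.8 and 32.5 CPM) and NR1D2 (116 and 140 CPM). In muscle NPAS2 was 2.42-fold lower and PER2 higher (30.2 and 47.3 CPM), whereas CRY2 was lower (74.7 and 53.3 CPM). PER1 and PER2 thus had opposite breed ratios in liver and muscle, and CRY1 and CRY2 in liver. The hour of sampling is not known for either breed, and its part in these ratios was not tested.

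**Figure D4:**
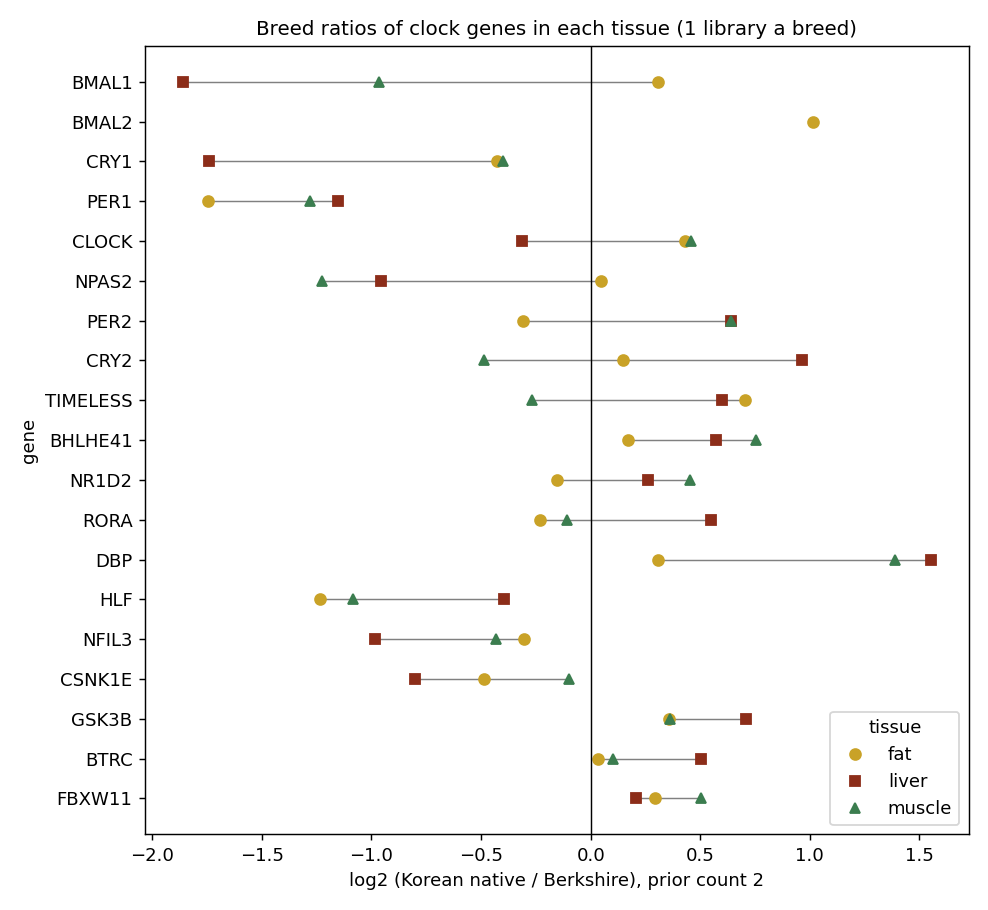
log2 ratio of Korean native over Berkshire level with a prior count of 2 (horizontal axis) for 19 clock genes (vertical axis), 1 symbol per tissue and no replicate, leaving out ratios from fewer than 10 counts. PER1 lies between -1.75 and -1.15 and DBP reaches 1.55 in liver.

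Ratios of counts between genes of a library do not depend on scaling. Each BMAL1 read was matched by 91.9 PER1 reads in Berkshire fat (exact 95% interval 65.0 to 135) and by 21.7 in Korean native fat (15.8 to 30.6). In liver the ratio was 17.9 in Berkshire (13.6 to 24.2) and 31.6 in Korean native (19.3 to 55.8), and in muscle 50.9 (36.6 to 72.9) and 42.6 (25.2 to 78.5). The breeds were apart in fat, and their intervals overlapped in liver and muscle. BMAL2 reads per BMAL1 read were 3.34 (2.23 to 5.13) and 5.45 (3.88 to 7.84) in Berkshire and Korean native fat, and at most 0.214 (0.0395 to 0.768) in the other libraries. CRY1 reads per BMAL1 read ran from 2.04 (1.45 to 2.90) in Berkshire liver to 6.50 (4.46 to 9.75) in Berkshire fat. In Korean native liver, where both genes were low, that ratio was 2.31 (1.26 to 4.45), which overlapped Berkshire liver.

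Genes whose log2 level followed each of the 4 most closely over the 6 libraries were listed among 7495 or 7496 named genes of at least 5 CPM, by Pearson r, as a description of points that share libraries and tissue. For BMAL2 these were N4BP3, CRIM1, KIAA0930, CNIH1 and ACAP3, with r from 0.987 to 0.996, and 87 genes exceeded 0.95. N4BP3 stood at 17.8 CPM in Berkshire fat, 33.7 CPM in Korean native fat and between 1.00 and 3.48 CPM elsewhere. For BMAL1 they were CHERP, DVL3, SMPD4, SLC38A2 and FAM234B (r 0.962 to 0.982), and 5 genes exceeded 0.95. For CRY1 they were LRP4, VGLL4, CHD6, TASOR2 and RAVER1 (r 0.947 to 0.983), with 4 above 0.95. For PER1 they were DAAM2, ZSWIM8, EYA3, SLC35A5 and RAE1 (r 0.936 to 0.967), with 2 above 0.95. Among the 4 themselves r ran from -0.41 for BMAL1 and BMAL2 to 0.75 for CRY1 and PER1.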

How the data were processed

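Messenger RNA of 6 pig tissue samples was sequenced from 1 µg of total RNA per TruSeq library, per the labels' protocols. The authors deposited unnormalised read counts for each Ensembl gene ID. TopHat, HTSeq 0.5.3p3 and the Sscrofa10.2 build are named in the submitters' processing notes; the sources used here give no annotation release, strand setting or counting mode. The 5 closing entries that name no gene, 64.7% to 67.4% of a file, were left out. Symbols came from the supplied table of gene names (11804 IDs matched). Sequences and coordinates are not used here.

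An additive model of tissue and breed was fitted to all libraries with edgeR 4.0.16 (TMM factors, filterByExpr, quasi-likelihood test, two-sided, Benjamini-Hochberg over 13810 genes, threshold 0.05), leaving 2 residual degrees of freedom. Each SE is the size of the log2 difference divided by the root of its F statistic. With 1 library per breed and tissue, a p-value rests only on what the additive tissue and breed terms leave over. The libraries may come from few animals, and the spread among animals of a breed within a tissue was not measured. The breed test takes the 3 tissues as replicates of a breed, and these may share an animal. DESeq2 1.42.0 and limma-voom (limma 3.58.1) in R 4.3.3, other scalings, no filter, a dropped model term and leaving out each library were alternatives, and for ratios within a tissue a prior count of 0.5 and a minimum of 1 CPM. The fit was also run on counts simulated from the same additive model with independent libraries. Such counts cannot show how the test behaves with shared animals or with spread among animals. Intervals are exact binomial or Poisson ones, and with the floor of 3 counts they cover counting error only.

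Genes and lists were chosen with earlier results of these data known. Named were the 4 genes, the 5 genes of highest Pearson r with each, clock genes of a fixed list and some cell type markers. Of the glucocorticoid list, PDK4 and PCK1 were named, abundant members that also had its largest breed differences. Other abundant members with small breed differences were not named. FKBP5 and ZBTB16, less abundant, were named after their liver values were seen. Some genes of these lists are counted in the totals but not reported here by name or drawn.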

Additional observations from a re-analysis of the deposited data

How the results depend on the processing

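The BMAL2 calls against fat and the signs of PER1 and CRY1 between breeds over tissues held in all 12 alternatives. Counts of clock genes called ran from 4 to 11 in liver against fat, 2 to 4 in muscle against fat and 3 to 7 in liver against muscle when 1 library was left out, and stayed at 0 between breeds, where DESeq2 called 2, PER1 among them. Within fat, 1 clock gene was 4-fold apart with total counts and 1 with a minimum of 1 CPM, in place of 0, and none of these was BMAL1, BMAL2, CRY1 or PER1. Total counts turned the sign of values that did not pass: BMAL1 to -0.41 in liver and -0.61 in muscle against fat, CRY1 to -0.86 and PER1 to -0.49 in muscle against fat; the scaling itself moved the median gene by about the same amount. Leaving out 1 library gave ranges across 0 for BMAL1 in liver against fat (-0.30 to 1.54, negative without Berkshire fat or Berkshire liver), in muscle against fat (-0.56 to 1.28, negative without Berkshire fat) and in liver against muscle (-0.72 to 0.95, negative without Berkshire liver), and for CRY1 in liver against fat (-1.30 to 0.0645, positive without Korean native liver) and in muscle against fat (-0.25 to 0.43, negative without Berkshire fat or Korean native muscle); the cause was not tested. No paired analysis by replicate number was possible because replicate numbers mark nothing with 1 library per breed and tissue; the additive model already compares tissues within breed and breeds within tissue. BMAL1, at 14 to 52 counts, is limited by depth, and BMAL2 outside fat, at 0 to 3 counts, is near the floor.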
